A study of Mus musculus with 18 samples.

Results

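The genes described here are 10 CC chemokines, taken by symbol from the 43309 genes of the deposited table: Ccl2, Ccl3, Ccl4, Ccl5, Ccl7, Ccl9, Ccl12, Ccl17, Ccl22 and Ccl24. Each symbol matched 1 row, and all 10 rows passed the filter on low values. They were measured by RNA sequencing of total RNA from bone marrow-derived macrophages of C57BL/6 mice, that is, marrow cells kept for 7 days in 10% serum and 10 ng/ml of the macrophage growth factor M-CSF. Stimulation lasted 18 h, either with 100 ng/ml LPS, a bacterial cell wall component, plus 20 ng/ml interferon gamma (M1), or with 20 ng/ml IL-4 (M2). The 6 groups are 14-3-3e knockout M1, PGRN knockout M1, WT M1, 14-3-3e knockout M2, PGRN knockout M2 and WT M2, each with 3 libraries, 18 in all. The 14-3-3e knockout is labelled as a myeloid one, the PGRN knockout carries no such restriction in its label, and all groups share the strain and the M-CSF culture. No unstimulated cells were among the samples, so M1 can be set only against M2. Neither the promoter behind the myeloid deletion nor the number of mice behind a group's 3 libraries is given in the sources used here. The p-values therefore measure only the spread between these libraries, which may be technical.

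Chemokines are small secreted proteins that guide migrating leukocytes, and the CC family is named for a pair of adjacent cysteines. Ccl2, Ccl7 and the rodent gene Ccl12 encode monocyte attractants that act through the receptor CCR2. Ccl3, Ccl4 and Ccl5 encode inflammatory chemokines that attract monocytes and T cells, and Ccl9 encodes a CCR1 ligand of rodents. The products of Ccl17 and Ccl22 bind CCR4, found on T helper and regulatory T cells, and the eotaxin Ccl24 acts on CCR3 of eosinophils. In macrophages, LPS acts through NF-kB, and IL-4 acts through STAT6, the textbook inducer of Ccl17, Ccl22 and Ccl24.

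The members lie in 3 groups of neighbours and at 1 single locus, with positions given for GRCm38 from GENCODE M21. On chromosome 11, Ccl2, Ccl7 and Ccl12 lie within 67.8 kb, and Ccl5, Ccl9, Ccl3 and Ccl4 lie within 138.9 kb. On chromosome 8, Ccl22 and Ccl17 lie within 66.5 kb, and Ccl24 is alone on chromosome 5. The deleted genes Ywhae (14-3-3e) and Grn (PGRN) are on chromosome 11 too, Ywhae 6.27 to 7.9 Mb and Grn 18.8 to 20.4 Mb from its 7 members. RefSeq promoters (GRCm38.p6, from 250 bases before to 50 after the start) were at hand for 5 of the 10, namely Ccl3, Ccl9, Ccl12, Ccl17 and Ccl22. Ccl2, Ccl4, Ccl5, Ccl7 and Ccl24 had none. Of these, 4 are shown because their genes have different expression patterns: Ccl3 was higher in M1, Ccl9 was high in both states, and the neighbours Ccl17 and Ccl22 were higher in M2. They are printed from 5′ to 3′ along the gene, with motif matches in capitals.
Ccl17 (chr8:94810203-94810502, plus strand): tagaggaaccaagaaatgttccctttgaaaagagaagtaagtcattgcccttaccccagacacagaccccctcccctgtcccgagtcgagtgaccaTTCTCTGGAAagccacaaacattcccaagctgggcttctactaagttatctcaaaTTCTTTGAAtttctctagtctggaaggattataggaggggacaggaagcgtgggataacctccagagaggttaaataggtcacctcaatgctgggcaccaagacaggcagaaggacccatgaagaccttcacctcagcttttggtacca
Ccl22 (chr8:94745434-94745733, plus strand): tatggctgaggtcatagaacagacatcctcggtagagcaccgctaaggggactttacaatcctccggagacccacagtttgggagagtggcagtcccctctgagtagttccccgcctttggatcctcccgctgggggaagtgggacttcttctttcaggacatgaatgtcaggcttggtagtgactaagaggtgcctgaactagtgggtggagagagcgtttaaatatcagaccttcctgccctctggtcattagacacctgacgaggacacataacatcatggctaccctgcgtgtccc
Ccl3 (chr11:83649329-83649628, minus strand): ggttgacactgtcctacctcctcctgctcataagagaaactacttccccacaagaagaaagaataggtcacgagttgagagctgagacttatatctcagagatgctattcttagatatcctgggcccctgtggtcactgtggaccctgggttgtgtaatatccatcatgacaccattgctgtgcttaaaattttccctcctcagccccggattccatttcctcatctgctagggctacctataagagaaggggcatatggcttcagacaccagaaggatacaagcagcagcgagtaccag
Ccl9 (chr11:83578587-83578886, minus strand): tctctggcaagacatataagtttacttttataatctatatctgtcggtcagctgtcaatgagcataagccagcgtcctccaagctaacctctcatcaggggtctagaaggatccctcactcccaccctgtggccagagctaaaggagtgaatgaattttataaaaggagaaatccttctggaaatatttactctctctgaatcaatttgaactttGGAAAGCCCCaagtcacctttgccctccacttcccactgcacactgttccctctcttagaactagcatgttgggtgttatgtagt

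Ccl17 held the STAT6 form, TTC and GAA with any 4 bases between them, at bases -154 to -145 and the gamma-activated site, TTC and GAA with any 3 bases between them, at bases -99 to -91, counted from the transcript start. The 2 matches do not overlap each other. Ccl9 held the kB site, GGG and TTCC with any 3 bases between them, read on the opposite strand, at bases -35 to -26. The form with GGG and TTTCC 2 bases apart is contained in that motif and was not counted apart. Ccl3, Ccl12 and Ccl22 held none of these letters in this window on either strand, and the interferon element, GAAA and GAAA with any 2 bases between them, was in none of the 5. Of 32851 promoters of this length, 5.56% held the kB letters, 8.30% the gamma-activated site, 6.95% the STAT6 form and 3.44% the interferon element. A match is a description of the letters and not evidence of binding.

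Sequencing depth ran from 5.16 to 105 M reads per library, a 20.4-fold range, the shallowest being WT M1 replicate 1 and the deepest 14-3-3e knockout M1 replicate 1. Grn averaged 313 normalized counts in PGRN knockout M1, against 88266 in WT M1. In M2 it averaged 26.9 in PGRN knockout cells, against 31336 in WT cells. Ywhae averaged 5647 in 14-3-3e knockout M1 and 9305 in WT M1, and 4860 in 14-3-3e knockout M2 and 8739 in WT M2, so transcripts of the deleted gene remained in the myeloid knockout. All 10 macrophage identity genes were detected in every group, with sums given in CPM (reads per M reads). In M1 the sums were 9393 to 12950 in 14-3-3e knockout, 19400 to 23237 in PGRN knockout and 11969 to 20020 in WT. In M2 they were 4263 to 5104 in 14-3-3e knockout, 14577 to 16182 in PGRN knockout and 7328 to 7714 in WT. All 12 stromal genes searched, collagens among them, were detected too and none was at 0. They summed to 31098 to 37955 CPM in 14-3-3e knockout M1, 13199 to 15349 in PGRN knockout M1 and 17061 to 29301 in WT M1. Markers of T and NK cells summed to 0.452 to 5.30 CPM. Markers of B and plasma cells and of neutrophils were higher. Those of B and plasma cells summed to 34.5 to 227 CPM, lowest in PGRN knockout M1 and highest in 14-3-3e knockout M1. Neutrophil markers summed to 42.8 to 391 CPM, with the lowest library in PGRN knockout M2 and the highest in WT M2. The part of these cells in the chemokine results was not tested. Ribosomal RNA-like genes held 12.4% of the reads in WT M2 replicate 3 and 1.61% in WT M1 replicate 2, and no more than 0.114% in any other library.

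M1 cells put more of their reads into these chemokines than M2 cells in every genotype, with Ccl5 the main transcript of M1 and Ccl7 that of M2. The 10 genes took 0.381% ± 0.0205 of all reads in 14-3-3e knockout M1, 0.597% ± 0.0256 in PGRN knockout M1 and 0.711% ± 0.0999 in WT M1 (SD, n = 3 each). In M2 they took 0.0765% ± 0.00811 in 14-3-3e knockout, 0.0630% ± 0.00307 in PGRN knockout and 0.102% ± 0.00263 in WT. Between M1 groups the 3 libraries of 14-3-3e knockout lay below the 3 of PGRN knockout, which lay below the 3 of WT. Summed in normalized counts, the scale of the tests, 14-3-3e knockout M1 lay at 75186 to 83881, below PGRN knockout M1 at 137220 to 149975 and WT M1 at 138410 to 189551, and these 2 overlapped. Per kb of exon, Ccl5 made up 58.2% ± 4.56 of the summed level in 14-3-3e knockout M1, 74.5% ± 5.78 in PGRN knockout M1 and 59.5% ± 2.30 in WT M1. In M2 it made up 0.285% ± 0.0245 in 14-3-3e knockout, 0.472% ± 0.106 in PGRN knockout and 0.281% ± 0.182 in WT. Ccl7 took the largest share in M2, with 39.5% ± 2.15 in 14-3-3e knockout, 35.0% ± 1.997 in PGRN knockout and 47.3% ± 4.93 in WT. The length used for these shares is that of all annotated exons of a gene. It is 960 bases for Ccl5 and 1138 for Ccl2, whose longest coding transcripts have 532 and 813. The shares therefore depend on the length chosen.

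**Figure D1:**
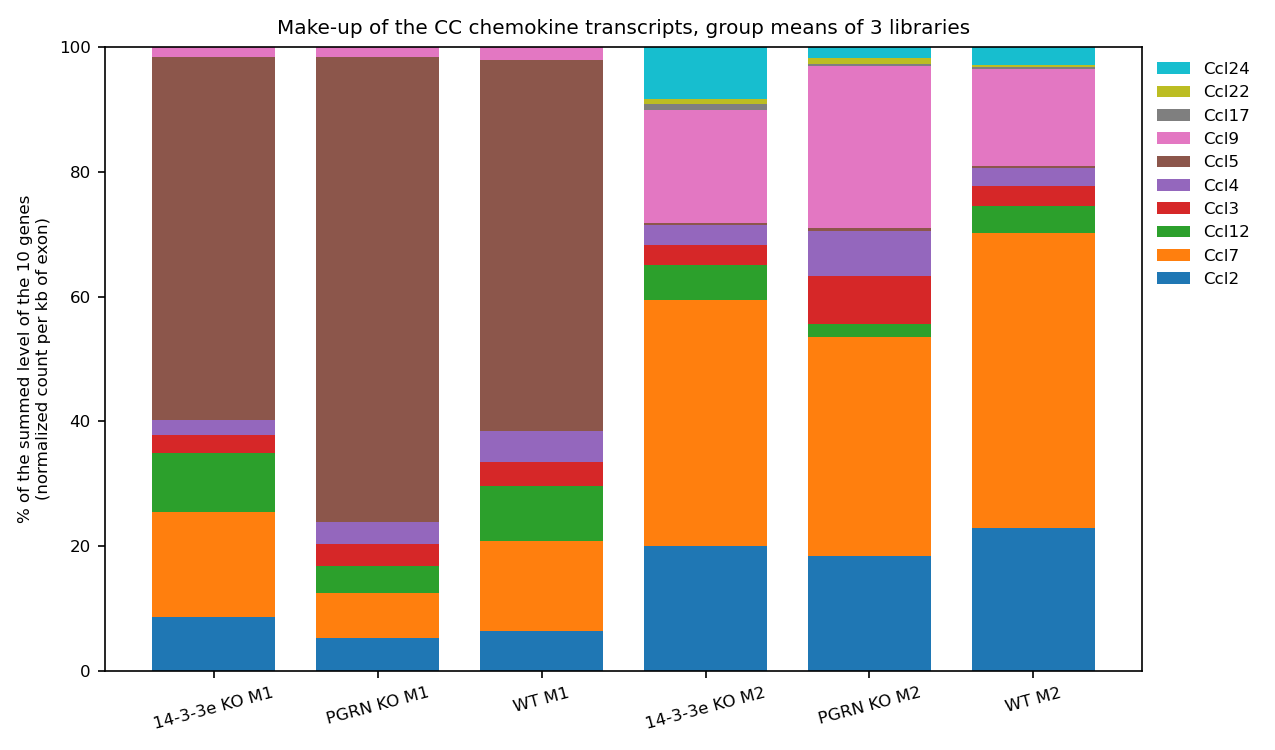
Stacked bars of the mean share (%) of each gene in the summed level of the 10 CC chemokines, in normalized counts per kb of exon, for the 6 groups of 3 libraries. Ccl5 fills 58.2% to 74.5% of the M1 bars and at most 0.472% of the M2 bars, where Ccl7 is the widest segment.

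The CCR2 ligands were well expressed in both states and higher in M1. Ccl2 stood at 8895, 7509.8 and 9213 in 14-3-3e knockout M1, 8924, 11116 and 7297 in PGRN knockout M1, against 14880.3, 11454 and 11307 in WT M1, in normalized counts. It stood at 2510.0, 2299 and 2424 in 14-3-3e knockout M2, 2024, 1836 and 1792 in PGRN knockout M2 and 3397, 4502 and 5182 in WT M2. From low to high the order of group means was PGRN knockout M2, 14-3-3e knockout M2, WT M2, 14-3-3e knockout M1, PGRN knockout M1 and WT M1, and among neighbours only the ranges of the 2 M1 knockouts overlapped. Ccl7, which encodes MCP-3, was at 12105, 10134 and 12765 in 14-3-3e knockout M1, 7500.3, 11969.9 and 6158 in PGRN knockout M1, against 24543, 17934 and 17351 in WT M1. Its M2 counts were 3544, 3209.6 and 3337 in 14-3-3e knockout M2, 2766, 2278 and 2481 in PGRN knockout M2 and 4729, 6330.0 and 8039 in WT M2. The order of means from low to high was PGRN knockout M2, 14-3-3e knockout M2, WT M2, PGRN knockout M1, 14-3-3e knockout M1 and WT M1, and the lowest library of PGRN knockout M1 was below the highest of WT M2. Ccl12 was at 4753, 3838 and 4653 in 14-3-3e knockout M1, 2948, 4788 and 2777 in PGRN knockout M1, against 9979.7, 7141 and 7044 in WT M1. Its counts were 358, 279 and 333 in 14-3-3e knockout M2, 96.4, 133 and 82.8 in PGRN knockout M2 and 321, 421 and 397 in WT M2. PGRN knockout M2 libraries were the lowest of the 18 for Ccl12, and 14-3-3e knockout M2 and WT M2 overlapped.

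Ccl3 and Ccl4, neighbouring genes that encode MIP-1 alpha and MIP-1 beta, had 6 separate levels each. Ccl3 counted 2081, 2103 and 1531 in 14-3-3e knockout M1, 4120.4, 4465 and 3749 in PGRN knockout M1, against 5757, 4599 and 4739 in WT M1. Its M2 libraries counted 288, 228 and 249 in 14-3-3e knockout M2, 520.2, 544 and 507 in PGRN knockout M2 and 420.4, 343 and 428 in WT M2. Its order from low to high was 14-3-3e knockout M2, WT M2, PGRN knockout M2, 14-3-3e knockout M1, PGRN knockout M1 and WT M1, with no overlap between neighbours. For Ccl4 the counts were 1418, 1489 and 1109 in 14-3-3e knockout M1, 3456, 4273 and 2946 in PGRN knockout M1, against 7817, 4835 and 4578 in WT M1. The corresponding M2 counts were 257, 242 and 194 in 14-3-3e knockout M2, 463, 424 and 389 in PGRN knockout M2 and 337, 280.0 and 319.5 in WT M2. The order was that of Ccl3, again with no overlap between neighbours. The ratio of Ccl4 to Ccl3 counts was 0.705 ± 0.0216 in 14-3-3e knockout M1, 0.861 ± 0.0876 in PGRN knockout M1 and 1.13 ± 0.206 in WT M1 (SD, n = 3 each). The libraries of 14-3-3e knockout M1 lay at 0.682 to 0.724, apart from those of WT M1 at 0.966 to 1.36; the difference of ratios was not tested.

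Ccl5, the chemokine RANTES, was high in M1 and close to absent in M2. It reached 48782, 54358 and 42869.8 in 14-3-3e knockout M1, 115096, 98461 and 108298 in PGRN knockout M1, against 114432, 83177 and 96819.9 in WT M1. M2 libraries held 29.1, 30.0 and 28.0 in 14-3-3e knockout M2, 38.0, 34.1 and 49.0 in PGRN knockout M2 and 38.6, 15.1 and 86.6 in WT M2, from 25 to 101 reads each. The 3 libraries of 14-3-3e knockout M1 lay below all 6 of the other M1 groups, which overlapped each other. WT M2 spanned the whole range of the M2 libraries, its replicate 3 being the one rich in ribosomal RNA-like reads. Ccl9 varied least of the 10. Its counts were 5635, 4399 and 2987 in 14-3-3e knockout M1, 7919.7, 7647 and 5982 in PGRN knockout M1, against 12111, 9234 and 10448 in WT M1. M2 cells held 6778, 6225 and 4747 in 14-3-3e knockout M2, 7452, 6957 and 6767 in PGRN knockout M2 and 8453, 6838 and 8103 in WT M2. The order of means from low to high was 14-3-3e knockout M1, 14-3-3e knockout M2, PGRN knockout M2, PGRN knockout M1, WT M2 and WT M1, and every neighbour overlapped except WT M1, which lay above the rest. Of 2957 windows of 50 bases in the Ccl9 transcript, 59 also occur in transcripts of other genes, so a small part of its reads may be shared; for the other 9 genes no window was shared.

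The CCR4 ligands were lowly expressed in M1. Ccl22 had 61.1, 37.7 and 50.8 in 14-3-3e knockout M1, 4.09, 29.9 and 4.65 in PGRN knockout M1, against 17.8, 18.0 and 3.05 in WT M1. It had 281, 137 and 169.6 in 14-3-3e knockout M2, 199, 191 and 216 in PGRN knockout M2 and 162, 73.8 and 87.6 in WT M2. PGRN knockout M1 and WT M1 overlapped and rested on 24 and 17 reads over 3 libraries each. The 14-3-3e knockout M1 libraries lay above them and below every M2 library, and 14-3-3e knockout M2 overlapped both other M2 groups. Ccl17 was the rarest of the 10 and is given in reads for M1: 46, 11 and 2 in 14-3-3e knockout, 1, 0 and 1 in PGRN knockout and 1, 2 and 2 in WT. In M2 it had 63.5, 46.1 and 33.9 in 14-3-3e knockout M2, 13.6, 18.5 and 16.9 in PGRN knockout M2 and 27.9, 12.7 and 16.5 in WT M2 normalized counts. The 3 libraries of 14-3-3e knockout M2 were above all others, and WT M2 and PGRN knockout M2 overlapped. Ccl17 was low in M2 as well, with 177, 86 and 58 reads over the 3 libraries of 14-3-3e knockout, PGRN knockout and WT. Ccl24, the eotaxin, had 7.67, 7.04 and 5.29 in 14-3-3e knockout M1, 4.09, 7.47 and 8.37 in PGRN knockout M1, against 8.92, 13.5 and 24.4 in WT M1. M2 libraries had 1551, 1078 and 894 in 14-3-3e knockout M2, 188, 273 and 158 in PGRN knockout M2 and 839.5, 459.6 and 502 in WT M2. The M2 order from low to high was PGRN knockout, WT and 14-3-3e knockout, without overlap. The 3 M1 groups rested on 57, 23 and 19 reads in 14-3-3e knockout, PGRN knockout and WT. Defining markers of eosinophils summed to 0.969 to 17.01 CPM, higher in M2 (5.64 to 17.01) than in M1 (0.969 to 2.38), and their part in the Ccl24 result was not tested.

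**Figure D2:**
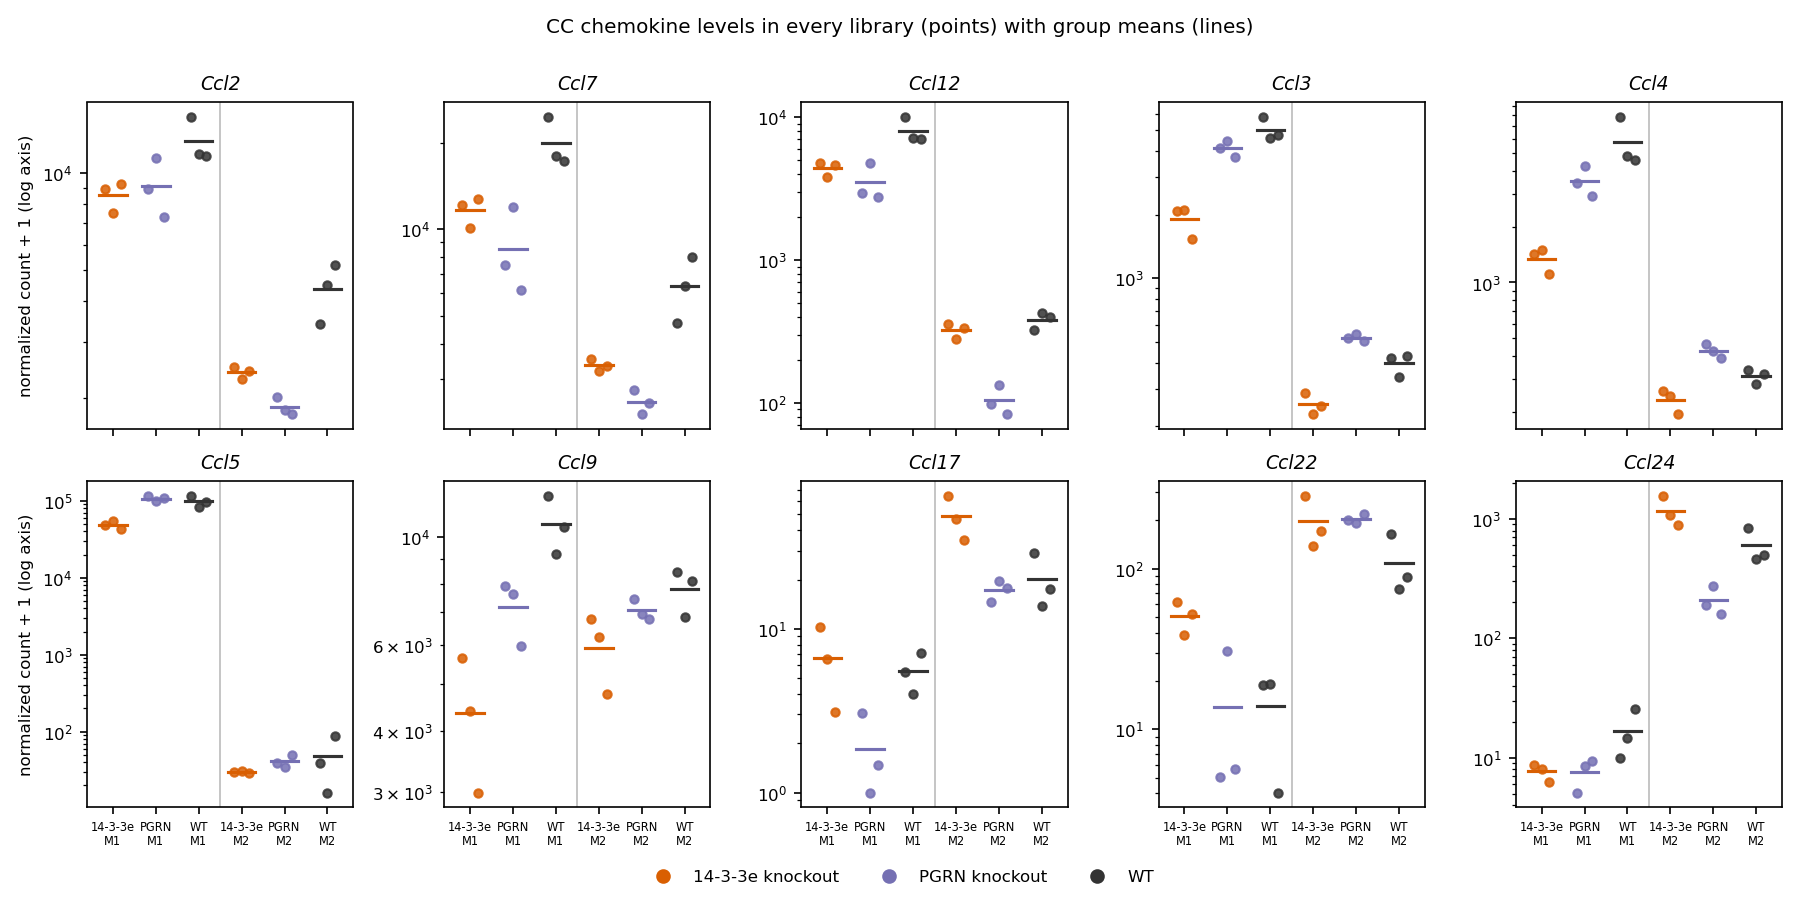
Normalized count + 1 (log axis) of each of the 10 genes in every library (points), with the group mean as a line; 14-3-3e knockout, PGRN knockout and WT stand from left to right, M1 before M2. Ccl2, Ccl7, Ccl12, Ccl3, Ccl4 and Ccl5 are higher on the M1 side of each panel, and Ccl17, Ccl22 and Ccl24 on the M2 side.

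LPS with interferon gamma against IL-4 was compared in each genotype, and the same 9 of the 10 genes changed the same way in all of them. Ccl5, Ccl12, Ccl4, Ccl3, Ccl2 and Ccl7 were higher in M1, and Ccl24, Ccl22 and Ccl17 were higher in M2. Each comparison is a difference of log2(normalized count + 1) tested with limma over 21336 genes, with p-values adjusted over all of them by the Benjamini-Hochberg method and a threshold of 0.05. In 14-3-3e knockout cells 6 members were higher in M1, 3 were lower and 1 did not pass, beside 30.0% of all tested genes past the threshold (15.6% higher and 14.4% lower). The counts were 6, 3 and 1 in PGRN knockout cells too, beside 37.5% of genes (18.0% higher and 19.5% lower). They were 6, 3 and 1 in WT cells, beside 38.9% (18.9% higher and 20.0% lower). Libraries did not overlap for 9 members in 14-3-3e knockout (background 49.3%), 9 in PGRN knockout (51.3%) and 10 in WT (40.2%). The median difference over the members was 1.80 in 14-3-3e knockout, 1.98 in PGRN knockout and 1.60 in WT, against 0.03, -0.04 and -0.04 over all tested genes.

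Ccl5 had the widest M1 to M2 difference of the members in each genotype. Its log2 fold change was 10.66 ± 0.41 in 14-3-3e knockout (adjusted p = 7.18e-11), 11.35 ± 0.41 in PGRN knockout (adjusted p = 3.01e-11) and 11.31 ± 0.41 in WT (adjusted p = 3.22e-11). Ccl12 followed among the genes higher in M1, with 3.77 ± 0.21 in 14-3-3e knockout, 5.05 ± 0.21 in PGRN knockout and 4.39 ± 0.21 in WT. Ccl4 had log2 fold changes of 2.53 ± 0.19 in 14-3-3e knockout, 3.05 ± 0.19 in PGRN knockout and 4.16 ± 0.19 in WT. For Ccl3 they were 2.89 ± 0.13, 2.97 ± 0.13 and 3.66 ± 0.13 in 14-3-3e knockout, PGRN knockout and WT. Ccl2 was higher in M1 than in M2 by 3.53-fold in 14-3-3e knockout, 4.77-fold in PGRN knockout and 2.90-fold in WT. Ccl7 was higher in M1 by 3.45-fold in 14-3-3e knockout, 3.28-fold in PGRN knockout and 3.17-fold in WT.

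Among the M2 genes, Ccl24 differed most. Its log2 fold change of M1 over M2 was -7.24 ± 0.35 in 14-3-3e knockout, -4.77 ± 0.35 in PGRN knockout and -5.23 ± 0.35 in WT, on a scale whose pseudocount of 1 understates changes of genes with few reads. Ccl22 had -1.91 ± 0.65 in 14-3-3e knockout (adjusted p = 0.0347), -4.40 ± 0.65 in PGRN knockout (adjusted p = 4.81e-05) and -3.18 ± 0.65 in WT (adjusted p = 0.000913). In 14-3-3e knockout the Ccl22 call ended at a pseudocount of 0.1 (adjusted p = 0.0524) and without any 1 of 14-3-3e knockout M1 replicates 1, 2 and 3 or M2 replicates 1 and 3 (adjusted p = 0.0557, 0.109, 0.0771, 0.125 and 0.0673). Ccl17 was 7.97-fold lower in 14-3-3e knockout M1 than in M2 (log2 fold change -2.995 ± 0.50, adjusted p = 0.000146). With 2 reads in PGRN knockout M1 against 86 in PGRN knockout M2, its ratio was 0.0389, with an exact 95% counting interval of 0.00464 to 0.145. In WT the 5 reads of M1 against 58 of M2 gave a ratio of 0.239 (interval 0.0748 to 0.590), and the call, with an adjusted p of 0.00718, ended at a pseudocount of 0.1 (adjusted p = 0.0677). These intervals cover counting error only.

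In the fit used for the calls, which had no replicate block, Ccl9 did not pass in any genotype. The log2 difference of M1 from M2 was -0.48 ± 0.19 in 14-3-3e knockout (adjusted p = 0.0722) and 0.44 ± 0.19 in WT (adjusted p = 0.082), and smaller than its standard error in PGRN knockout. In 14-3-3e knockout the M1 and M2 libraries of the same number deviated together. With the replicate number as a block shared by all genotypes, Ccl9 was lower in M1 there (adjusted p = 0.0181). With a block within each genotype, chosen after seeing the data, it was lower too (adjusted p = 0.000531). In WT these blocks made Ccl9 pass in the other direction, higher in M1 (adjusted p = 0.0227 and 0.000799). Some fits without a block also had Ccl9 lower in M1 in 14-3-3e knockout. It passed without 14-3-3e knockout M1 replicate 1 (adjusted p = 0.00904) and without M2 replicate 3 (adjusted p = 0.0306). It passed too on library totals (adjusted p = 0.00701) and with the filter of 5 CPM (adjusted p = 0.0491).

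**Figure D3:**
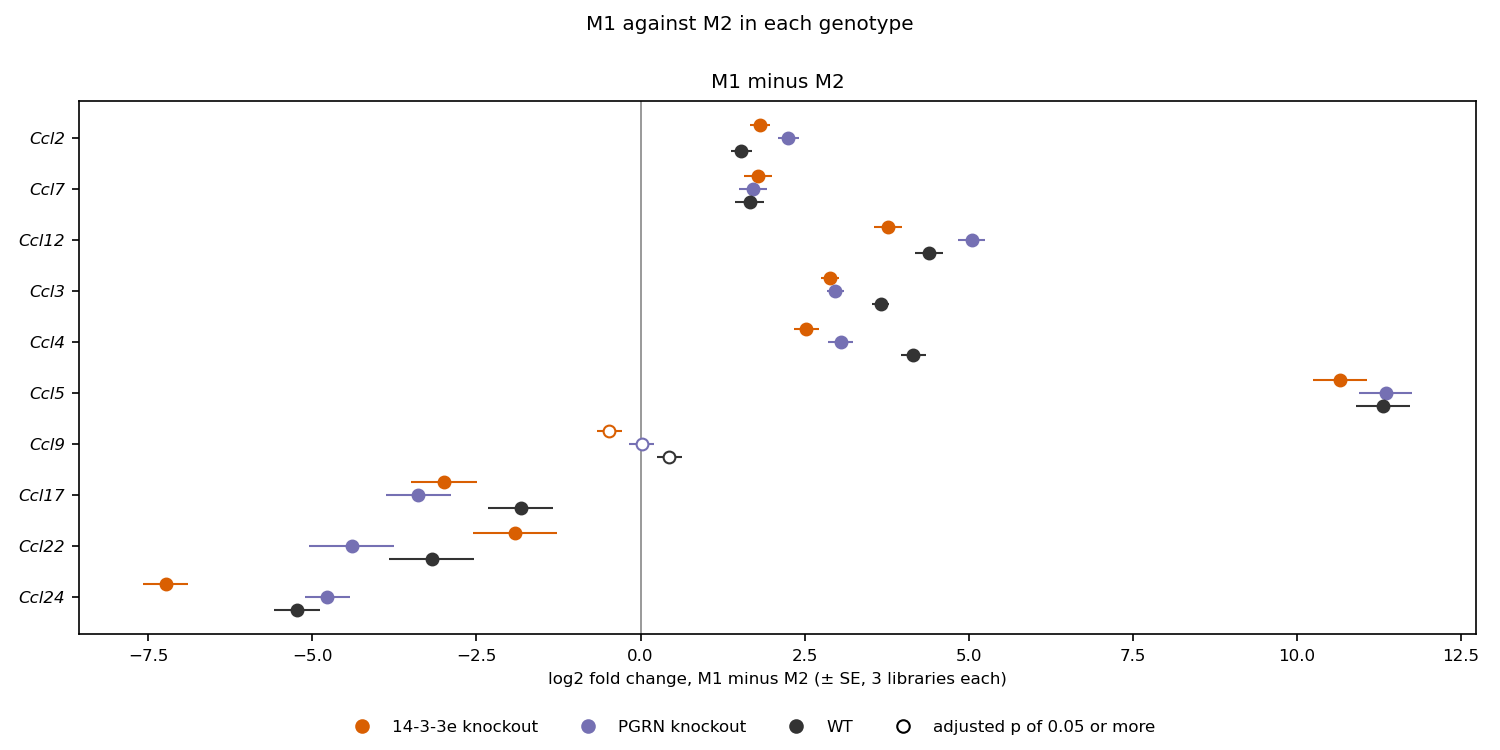
Log2 fold change of M1 over M2 (± SE, 3 libraries a group) for each gene in 14-3-3e knockout, PGRN knockout and WT, filled where the adjusted p was under 0.05. Ccl5 lies at 10.66 to 11.35, Ccl24 at -7.24 to -4.77 and Ccl9 around 0 with open symbols.

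Loss of 14-3-3e was compared with WT in M1, where it went with lower levels of most inflammatory members and a higher level of Ccl22. Ccl4 fell 4.19-fold, Ccl3 2.65-fold and Ccl9 2.51-fold. In all, 7 members were lower, 1 was higher and 2 did not pass, beside 21.3% of all tested genes past the threshold (9.31% lower and 12% higher). Libraries did not overlap for 9 of the 10, beside 32.8% of genes, and the median difference was -0.93 over members and 0.07 over all genes. Ccl4 had the largest change (log2 fold change -2.07 ± 0.19, adjusted p = 3.82e-06), then Ccl3 (log2 fold change -1.41 ± 0.13, adjusted p = 4.32e-06) and Ccl9 (log2 fold change -1.33 ± 0.19, adjusted p = 0.000397). The CCR2 ligands were lower by less, Ccl12 with -0.85 ± 0.21 (adjusted p = 0.0114), Ccl7 with -0.76 ± 0.22 (adjusted p = 0.023) and Ccl2 with -0.55 ± 0.16 (adjusted p = 0.0228). Ccl24 was lower, with 6.67 ± 1.23 normalized counts in 14-3-3e knockout M1 and 15.6 ± 7.94 in WT M1 (SD, n = 3 each; log2 fold change -1.02 ± 0.35, adjusted p = 0.0463). The Ccl24 call rested on 57 reads in 14-3-3e knockout M1 and 19 in WT M1 and held in 2 of 8 alternatives. It ended when only these 2 groups were fitted (adjusted p = 0.237). Ccl22 was higher, with 49.9 ± 11.7 in 14-3-3e knockout M1 and 12.97 ± 8.59 in WT M1 (log2 fold change 2.14 ± 0.65, adjusted p = 0.0295). Of 7 dendritic cell markers tested, 2 were higher than WT in 14-3-3e knockout M1 and 0 lower, Zbtb46 and Siglech, the second without a read in WT M1. The 8 markers listed summed to 167 to 172 CPM in 14-3-3e knockout M1 and 134 to 159 in WT M1. Ccr7, a receptor of migrating dendritic cells, averaged 42.0 ± 9.99 normalized counts in 14-3-3e knockout M1 and 11.5 ± 5.93 in WT M1 (log2 fold change 1.87 ± 0.46, adjusted p = 0.0105). The part of these cells in the Ccl22 result was not tested.

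Ccl5 was 48669.9 ± 5745 normalized counts in 14-3-3e knockout M1 and 98143 ± 15669 in WT M1 (SD, n = 3 each), without overlap, but did not pass (log2 fold change -1.01 ± 0.41, adjusted p = 0.0958). The fit shares 1 spread over the 6 groups, and in WT M2 Ccl5 ranged from 15.1 to 86.6. Ccl5 was lower with an adjusted p of 0.0273 when only the 14-3-3e knockout M1 and WT M1 libraries were fitted, 0.00057 with limma's voom weights on reads, and 0.00798 without the 2 libraries with most ribosomal RNA-like reads. Ccl17 did not pass, and its difference was smaller than its standard error.

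Only Ccl3, Ccl4 and Ccl9 kept their call in 14-3-3e knockout M1 under every alternative and without any 1 library. Without WT M1 replicate 1, adjusted p was 0.112 for Ccl2, 0.118 for Ccl7 and 0.0616 for Ccl12. Without 14-3-3e knockout M1 replicate 2 it was 0.103 for Ccl2, 0.0947 for Ccl7 and 0.0538 for Ccl12, and without its replicate 1 it was 0.0509 for Ccl7. For Ccl22 it was 0.111 without WT M1 replicate 3, and 0.088, 0.0582 and 0.0722 without 14-3-3e knockout M1 replicates 1, 2 and 3. For Ccl24 it was 0.0692, 0.0968 and 0.138 without those 3, and 0.0543 and 0.187 without WT M1 replicates 2 and 3. With voom it was 0.0774 for Ccl22 and 0.409 for Ccl24, so both calls ended there too.

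In M2, 14-3-3e knockout cells were lower than WT in Ccl2, Ccl3 and Ccl7 and did not differ past the threshold in the IL-4 genes. Here 3 members were lower, 0 were higher and 7 did not pass, beside 6.69% of all genes (3.37% lower and 3.32% higher). In 7 of the 10 the libraries did not overlap (31.6% of genes), and the median was -0.38 over members and 0.00 over all genes. Ccl7 fell 1.85-fold (log2 fold change -0.89 ± 0.22, adjusted p = 0.0252), Ccl2 1.78-fold (log2 fold change -0.83 ± 0.16, adjusted p = 0.00531) and Ccl3 1.55-fold (log2 fold change -0.64 ± 0.13, adjusted p = 0.00894). The Ccl7 call ended without WT M2 replicate 3 (adjusted p = 0.112), without the 2 libraries with most ribosomal RNA-like reads (adjusted p = 0.0963) and without 14-3-3e knockout M2 replicate 1, 2 or 3 (adjusted p = 0.0679, 0.081 and 0.0735). Ccl17, Ccl22 and Ccl24 had log2 fold changes of 1.31 ± 0.50, 0.87 ± 0.65 and 0.98 ± 0.35 (adjusted p = 0.123, 0.458 and 0.1), and each passed with voom (adjusted p = 0.0187, 0.0465 and 0.0078). Of 7 dendritic cell markers tested, 2 were higher here (Flt3 and Cd209a) and 0 lower, and the 8 listed summed to 166 to 172 CPM in 14-3-3e knockout M2 and 119 to 172 in WT M2. Ccl4 had -0.44 ± 0.19 (adjusted p = 0.169) and Ccl9 -0.41 ± 0.19 (adjusted p = 0.211). Ccl12, at 323 ± 40.3 in 14-3-3e knockout M2 and 379 ± 52.3 in WT M2, did not pass (adjusted p = 0.57), nor did Ccl5.

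PGRN knockout cells had lower levels of the CCR2 ligands than WT in both states. In M1, 7 members were lower, 0 were higher and 3 did not pass, beside 25.3% of all tested genes past the threshold (11.1% lower and 14.2% higher). The 2 groups stood apart in 8 of the 10, beside 31.8% of genes, and the median was -0.61 over members and 0.01 over all genes. Ccl7 fell 2.40-fold (log2 fold change -1.26 ± 0.22, adjusted p = 0.000615) and Ccl12 2.34-fold (log2 fold change -1.23 ± 0.21, adjusted p = 0.000556). Smaller falls passed for Ccl4 (-0.66 ± 0.19, adjusted p = 0.0154), Ccl9 (-0.56 ± 0.19, adjusted p = 0.0409) and Ccl2 (-0.47 ± 0.16, adjusted p = 0.0388). Ccl24 was lower, with 6.64 ± 2.25 normalized counts in PGRN knockout M1 and 15.6 ± 7.94 in WT M1 (SD, n = 3 each; log2 fold change -1.06 ± 0.35, adjusted p = 0.0338). The Ccl24 call rested on 23 reads in PGRN knockout M1 and 19 in WT M1. It ended when only these 2 groups were fitted (adjusted p = 0.259) and without the 2 libraries with most ribosomal RNA-like reads (adjusted p = 0.0525). Ccl17 passed too (adjusted p = 0.0185) but rests on 2 reads in PGRN knockout M1 and 5 in WT M1, a ratio of 0.160 with an exact 95% counting interval of 0.0153 to 0.978. Ccl3 did not pass (log2 fold change -0.29 ± 0.13, adjusted p = 0.122), and the differences of Ccl5 and Ccl22 were smaller than their standard errors.

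Ccl7 and Ccl12 kept their call in PGRN knockout M1 under every alternative and without any 1 library, and the other 5 did not. Without PGRN knockout M1 replicate 3, adjusted p was 0.188 for Ccl2, 0.0788 for Ccl4, 0.163 for Ccl9 and 0.0585 for Ccl17. Without WT M1 replicate 1 it was 0.168 for Ccl2, 0.0711 for Ccl4 and 0.156 for Ccl9. Without PGRN knockout M1 replicate 1 it was 0.0944 for Ccl2, 0.054 for Ccl9 and 0.157 for Ccl24, and without its replicate 2 it was 0.0566 for Ccl9 and 0.0771 for Ccl17. Without WT M1 replicate 3 it was 0.0751 for Ccl9, 0.0579 for Ccl17 and 0.153 for Ccl24. With voom it was 0.0547 for Ccl9, 0.0776 for Ccl17 and 0.534 for Ccl24. The PGRN and 14-3-3e comparisons in a state share their 3 WT libraries. Libraries of a group agreed least in WT, with a Pearson correlation over genes of 0.905 to 0.946 in WT M1 and 0.925 to 0.972 in WT M2. In the knockout groups it was 0.974 to 0.989, and the fit shares 1 spread over the 6 groups.

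In M2, PGRN knockout cells were lower than WT in all 3 CCR2 ligands and in the eotaxin Ccl24. In all, 4 members were lower, 1 was higher and 5 did not pass, beside 19.4% of all genes (8.30% lower and 11.1% higher); on library totals 4 were lower and 0 higher. Libraries did not overlap for 7 of the 10 (39.1% of genes), and the median was -0.14 over members and 0.00 over all genes. Ccl12 fell 3.67-fold (log2 fold change -1.88 ± 0.21, adjusted p = 1.81e-05), Ccl24 2.87-fold (log2 fold change -1.52 ± 0.35, adjusted p = 0.00514), Ccl7 2.49-fold (log2 fold change -1.31 ± 0.22, adjusted p = 0.000584) and Ccl2 2.28-fold (log2 fold change -1.19 ± 0.16, adjusted p = 6.66e-05). These 4 kept their call under every alternative and without any 1 library. Ccl3 was 1.32-fold higher (log2 fold change 0.41 ± 0.13, adjusted p = 0.0377), and that call ended without WT M2 replicate 1 or 2 (adjusted p = 0.0565 and 0.152) and without PGRN knockout M2 replicate 1, 2 or 3 (adjusted p = 0.0871, 0.105 and 0.077). Ccl4 moved the same way without passing (log2 fold change 0.45 ± 0.19, adjusted p = 0.109), and passed when only the 2 groups were fitted (adjusted p = 0.0201). Ccl22 had 0.98 ± 0.65 (adjusted p = 0.336), which passed with only the 2 groups (adjusted p = 0.0406) and with voom (adjusted p = 0.0162), while Ccl5, Ccl9 and Ccl17 differed by less than their standard errors.

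Stromal markers moved with genotype, and Ccl2, Ccl7 and Ccl12 are also genes that stromal cells can express. Of the 12 stromal genes, 4 were lower and 0 higher in PGRN knockout M1 than in WT M1, and 5 were lower and 1 higher in PGRN knockout M2 than in WT M2. In 14-3-3e knockout 5 were higher and 0 lower than WT in M1, and 2 higher and 0 lower in M2, while Ccl2 and Ccl7 were lower there. The shares of all tested genes past the threshold are those given with each comparison. In M2 the stromal sum was 28116 to 35790 CPM in 14-3-3e knockout, 12248 to 16085 in PGRN knockout and 17965 to 28221 in WT. Of 5 endothelial markers, 4 were higher and 0 lower than WT in 14-3-3e knockout M1, 4 and 0 in PGRN knockout M1, 3 and 0 in 14-3-3e knockout M2 and 4 and 0 in PGRN knockout M2. Their sums were 346 to 544 CPM in 14-3-3e knockout M1, 231 to 374 in PGRN knockout M1 and 116 to 211 in WT M1, and 188 to 332 in 14-3-3e knockout M2, 162 to 306 in PGRN knockout M2 and 59.5 to 158 in WT M2. Of the 10 macrophage identity genes, 2 were higher and 5 lower than WT in 14-3-3e knockout M1, and 5 higher and 1 lower in PGRN knockout M1. In M2, 0 were higher and 2 lower in 14-3-3e knockout, and 4 higher and 0 lower in PGRN knockout. The part of these cells in the chemokine results was not tested. In bulk RNA, fewer cells of a type and less RNA per cell cannot be told apart.

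**Figure D4:**
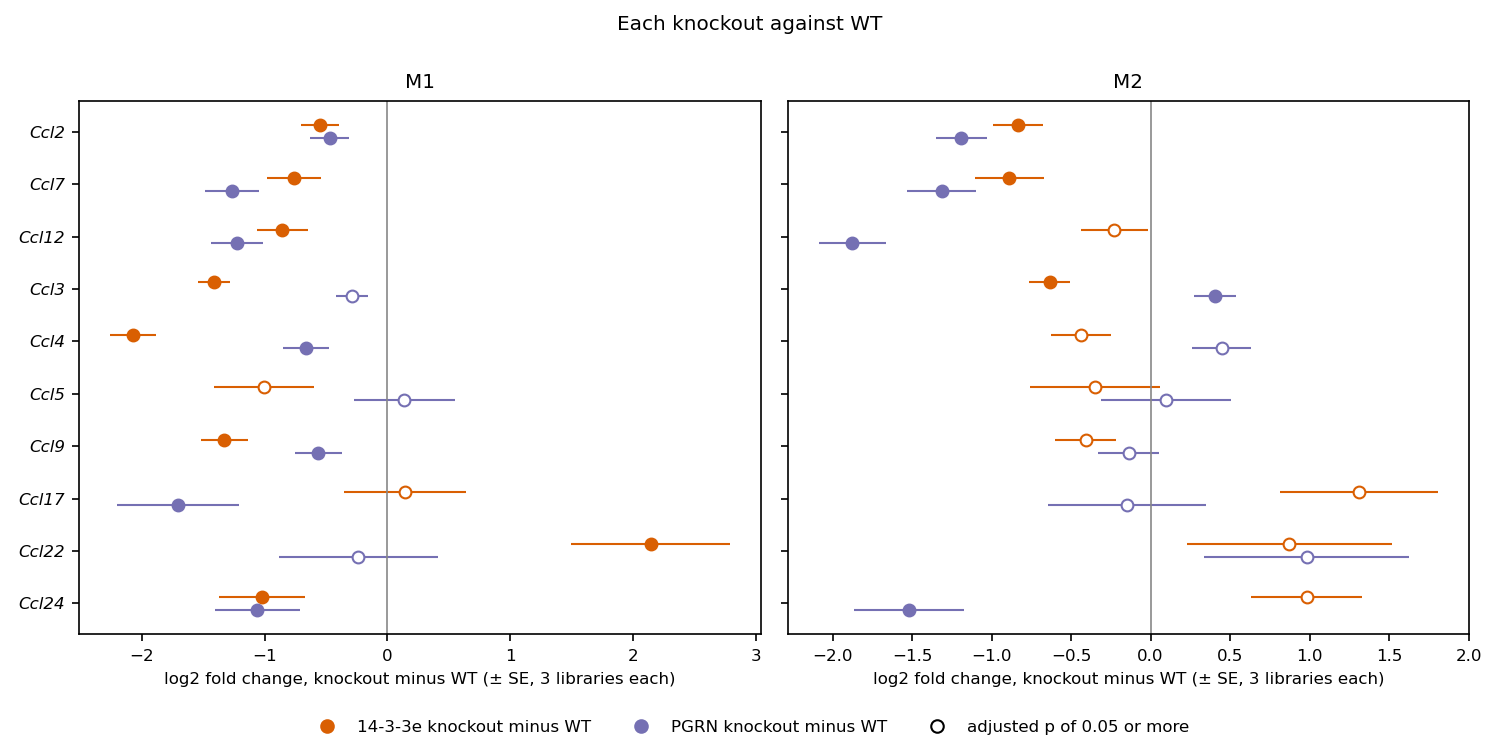
Log2 fold change of each knockout over WT (± SE, 3 libraries a group) in M1 and in M2, filled where the adjusted p was under 0.05. In 14-3-3e knockout M1 Ccl4 lies at -2.07 and Ccl22 at 2.14; in PGRN knockout M2 Ccl12 lies at -1.88 and Ccl3 at 0.41. The Ccl17 point of PGRN knockout M1 rests on 2 reads.

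Set against each other, the 2 knockouts differed in 5 members in M1 and 4 in M2, and Ccl3 and Ccl4 were lower in 14-3-3e knockout in both states. In M1, 3 members were lower in 14-3-3e knockout than in PGRN knockout, 2 were higher and 5 did not pass, beside 25.0% of all genes (12.5% lower and 12.5% higher). Libraries did not overlap for 6 of the 10 (43.3% of genes), and the median was -0.02 over members and 0.04 over all genes. Ccl4 was 2.65-fold lower (log2 fold change -1.40 ± 0.19, adjusted p = 3.21e-05), Ccl3 2.17-fold lower (log2 fold change -1.12 ± 0.13, adjusted p = 8.05e-06) and Ccl9 1.70-fold lower (log2 fold change -0.76 ± 0.19, adjusted p = 0.00721). The Ccl9 call ended when only the 2 groups were fitted (adjusted p = 0.0551). Ccl22 was 5.20-fold higher (log2 fold change 2.38 ± 0.65, adjusted p = 0.0129), and the call ended without PGRN knockout M1 replicate 1 (adjusted p = 0.07) or replicate 3 (adjusted p = 0.0638). Ccl17 passed on 59 reads in 14-3-3e knockout M1 and 2 in PGRN knockout M1 (ratio 11.4, exact 95% counting interval 3.01 to 96.1, adjusted p = 0.0109), and not without 14-3-3e knockout M1 replicate 1 (adjusted p = 0.0681) or PGRN knockout M1 replicate 2 (adjusted p = 0.0525). Ccl5 had -1.14 ± 0.41 (adjusted p = 0.0565) without overlap, and passed when only the 2 groups were fitted (adjusted p = 0.000121). Ccl7 and Ccl12 had 0.50 ± 0.22 and 0.37 ± 0.21 (adjusted p = 0.114 and 0.238), and both were higher in 14-3-3e knockout without PGRN knockout M1 replicate 2 (adjusted p = 0.00783 and 0.0309).

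In M2, 2 members were lower in 14-3-3e knockout than in PGRN knockout, 2 were higher and 6 did not pass, beside 18.2% of all genes (9.92% lower and 8.29% higher); on library totals 2 were lower and 5 higher. For 8 of the 10 the libraries did not overlap (39.5% of genes), and the median was 0.12 over members and 0.00 over all genes. Ccl24 was 5.67-fold higher (log2 fold change 2.50 ± 0.35, adjusted p = 6.32e-05) and Ccl12 3.13-fold higher (log2 fold change 1.65 ± 0.21, adjusted p = 3.6e-05). Ccl3 was 2.06-fold lower (log2 fold change -1.04 ± 0.13, adjusted p = 2.34e-05) and Ccl4 1.85-fold lower (log2 fold change -0.88 ± 0.19, adjusted p = 0.00272). These 4 kept their call under every alternative and without any 1 library. Ccl17 had 1.46 ± 0.50 (adjusted p = 0.0515), and Ccl2 and Ccl7 had 0.36 ± 0.16 and 0.43 ± 0.22 (adjusted p = 0.149 and 0.226). With only the 2 groups fitted these 3 passed as well (adjusted p = 0.00523 for Ccl17, 0.00388 for Ccl2 and 0.00414 for Ccl7). Ccl5 and Ccl9 had -0.45 ± 0.41 and -0.27 ± 0.19 (adjusted p = 0.571 and 0.423), and Ccl22 differed by less than its standard error.

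Whether a knockout acted differently in M1 and M2 was tested as a difference of differences, and Ccl4 was the member that passed in the fit without a block. The 14-3-3e effect on Ccl4 was -2.07 ± 0.19 in M1 and -0.44 ± 0.19 in M2, which differ by -1.63 ± 0.26 (adjusted p = 0.0232). In all, 1 member was lower, 0 were higher and 9 did not pass, beside 0.286% of all tested genes (0.145% lower and 0.141% higher), and the median was -0.72 over members and 0.06 over all genes. The call ended without 14-3-3e knockout M2 replicate 1 or 2 (adjusted p = 0.0586 and 0.0607), without WT M2 replicate 1 or 2 (adjusted p = 0.0529 and 0.0508), with only the 4 groups fitted (adjusted p = 0.0863) and with voom (adjusted p = 0.0559). Ccl24 had the largest value without passing (-2.002 ± 0.49, adjusted p = 0.123), and passed without WT M1 replicate 1 (adjusted p = 0.048). Ccl3 had -0.77 ± 0.18 (adjusted p = 0.111) and Ccl9 -0.92 ± 0.27 (adjusted p = 0.221). With a replicate block within each genotype, chosen after seeing the data, both passed as well (adjusted p = 0.0278 for Ccl3 and 0.0046 for Ccl9); same-numbered M1 and M2 libraries deviated together in 14-3-3e knockout and not in all pairs in WT.

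For PGRN knockout, 0 of the 10 members passed the same test with limma, beside 1.25% of all genes (0.783% lower and 0.469% higher), and 5 were under an unadjusted p of 0.05. With voom 0 passed as well. The median was -0.19 over members and 0.01 over all genes. Ccl4 came closest: its PGRN effect was -0.66 ± 0.19 in M1 and 0.45 ± 0.19 in M2, a difference of -1.11 ± 0.26 (adjusted p = 0.0517). It passed without WT M1 replicate 1, 2 or 3 (adjusted p = 0.039, 0.0429 and 0.0345) and without PGRN knockout M1 replicate 2 (adjusted p = 0.0342). Ccl3 had -0.69 ± 0.18 (adjusted p = 0.0842) and Ccl2 0.72 ± 0.22 (adjusted p = 0.141). Differences for Ccl5, Ccl7 and Ccl24 were smaller than their standard errors.

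The receptors these ligands act on were expressed unevenly, and Ccr4, the receptor of Ccl17 and Ccl22, had 0 reads in 14-3-3e knockout M2, PGRN knockout M1, WT M1 and WT M2. Of 16 receptor genes 14 were tested, and in 14-3-3e knockout, PGRN knockout and WT 4, 3 and 3 were higher in M1 and 0, 2 and 0 were lower, beside 30.0%, 37.5% and 38.9% of all genes past the threshold in either direction. Ccr2, the receptor of Ccl2, Ccl7 and Ccl12, counted 619, 699.6 and 609.6 in 14-3-3e knockout M1, 203, 279 and 199.9 in PGRN knockout M1, against 446, 416 and 399 in WT M1. Its M2 libraries counted 585, 1137 and 619.7 in 14-3-3e knockout M2, 386, 369.9 and 385 in PGRN knockout M2 and 528, 369 and 396 in WT M2. Ccr2 was lower in PGRN knockout M1 than in WT M1 (log2 fold change -0.90 ± 0.20, adjusted p = 0.00368). In 14-3-3e knockout Ccr2 was higher than in WT in M1 (log2 fold change 0.61 ± 0.20, adjusted p = 0.0418) and in M2 (log2 fold change 0.80 ± 0.20, adjusted p = 0.0263), while its ligands Ccl2 and Ccl7 were lower. Ccr3, the receptor of Ccl24, was lower in 14-3-3e knockout M2 than in WT M2 (log2 fold change -1.12 ± 0.21, adjusted p = 0.0053). Ccrl2, which binds chemerin without signalling as a usual receptor, was higher in PGRN knockout than in WT in M1 (log2 fold change 1.14 ± 0.15, adjusted p = 4.43e-05) and M2 (log2 fold change 1.27 ± 0.15, adjusted p = 2.12e-05). Ackr4, a scavenger of CCL19 and CCL21, was lower in PGRN knockout in M1 (log2 fold change -2.49 ± 0.46, adjusted p = 0.00133) and M2 (log2 fold change -2.52 ± 0.46, adjusted p = 0.00157).

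Of 14 other CC chemokine genes 13 were in the table and 8 were tested. In M1, 0 were higher and 2 lower in 14-3-3e knockout than in WT (median log2 fold change -0.58), and 0 higher and 2 lower in PGRN knockout than in WT (median -1.14), beside 9.31% and 11.1% of all genes lower. Ccl8, a further CC chemokine gene of the Ccl2 region, counted 4317, 2889.6 and 3081 in 14-3-3e knockout M1, 4272, 9405 and 4149 in PGRN knockout M1, against 16035, 10361 and 11234 in WT M1. It was lower in 14-3-3e knockout than in WT in M1 (log2 fold change -1.87 ± 0.41, adjusted p = 0.00797), and lower in PGRN knockout than in WT in M2 (log2 fold change -1.53 ± 0.41, adjusted p = 0.0182). Ccl6, a rodent neighbour of Ccl9, was higher in PGRN knockout than in WT in M2 (log2 fold change 1.38 ± 0.32, adjusted p = 0.00676), where Ccl9 did not differ past the threshold.

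**Figure D5:**
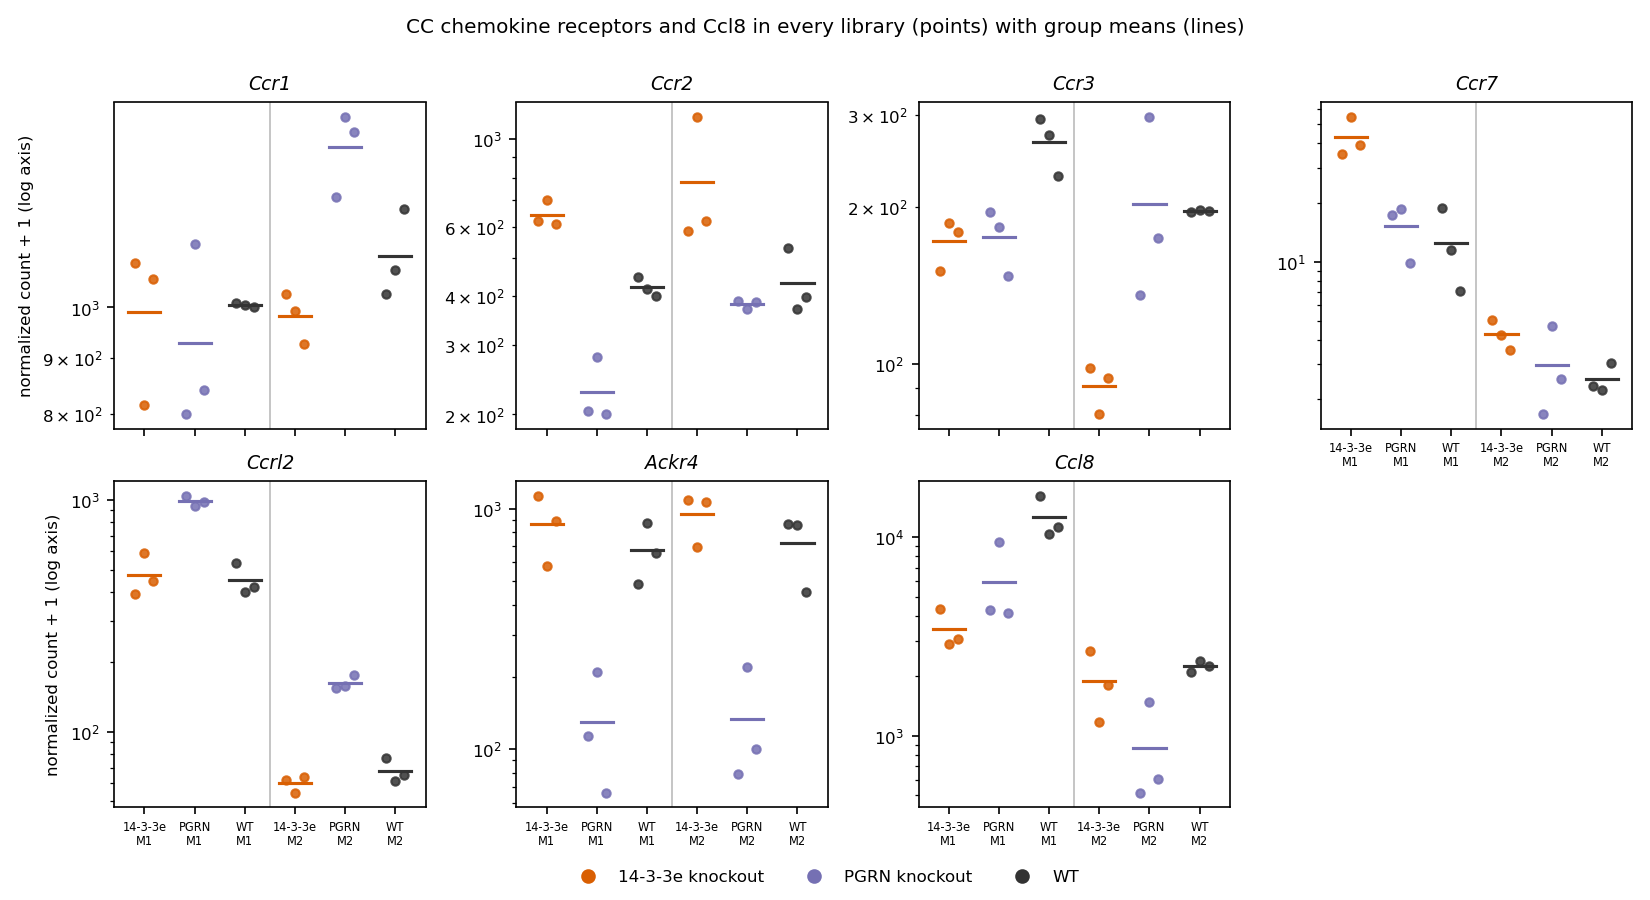
Normalized count + 1 (log axis) of 6 CC chemokine receptor genes and Ccl8 in every library (points), with group means as lines, in the group order 14-3-3e knockout, PGRN knockout and WT, M1 before M2. Ccrl2 is higher in M1, Ackr4 is low in PGRN knockout in both states, and Ccl8 is highest in WT M1.

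All 22 genes listed as carrying LPS, interferon or IL-4 signals to chemokine genes were tested. Of these, 14 were higher in M1 than in M2 in 14-3-3e knockout (15.6% of all genes), 12 in PGRN knockout (18.0%) and 13 in WT (18.9%). Those lower in M1 numbered 3 in 14-3-3e knockout (14.4% of all genes), 5 in PGRN knockout (19.5%) and 3 in WT (20.0%). In M1, 4 were higher and 6 lower in 14-3-3e knockout than in WT (21.3% of all genes past the threshold; median log2 fold change 0.04). They include the LPS co-receptor Cd14 (log2 fold change 1.01 ± 0.17, adjusted p = 0.000959) and Nfkb1 (log2 fold change 0.53 ± 0.10, adjusted p = 0.00233), which were higher, and the receptor genes Il4ra (log2 fold change -0.85 ± 0.12, adjusted p = 0.000281) and Ifngr1 (log2 fold change -0.38 ± 0.07, adjusted p = 0.00241), which were lower. In PGRN knockout M1 6 were higher and 2 lower than in WT M1 (14.2% of all genes higher and 11.1% lower). Tlr4, the LPS receptor gene, was among the higher (log2 fold change 0.76 ± 0.13, adjusted p = 0.00055). Ccl2, Ccl7 and Ccl12 were lower in the same PGRN knockout M1 libraries. In M2, 3 were higher and 1 lower in 14-3-3e knockout than in WT (3.32% of all genes higher and 3.37% lower). In PGRN knockout M2, 9 were higher and 0 lower than in WT M2 (11.1% of all genes higher and 8.30% lower).

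The likeness of other genes to each member was measured as Pearson's r of log2(normalized count + 1) over the 18 libraries, among 10322 genes. The libraries share their polarization, which alone sets high values, so r is a description. Ccl4 was most like its neighbour Ccl3 (r = 0.991), and Ccl7 most like its neighbour Ccl2 (r = 0.968). Ccl2 was most like Il10 (r = 0.984), which encodes an anti-inflammatory cytokine, and Ccl12 most like Socs3 (r = 0.986), an inhibitor of cytokine signalling. Ccl5 was most like H2-T22 (r = 0.997) and Parp10 (r = 0.997), and Ccl3 most like Trim12a (r = 0.993). Ccl24 was most like Msx3 (r = 0.980) and Chil4 (r = 0.978), the second a chitinase-like gene. Ccl22 was most like Slc30a4 (r = 0.971), a zinc transporter, and Ccl17 most like Parpbp (r = 0.936) and Cenpa (r = 0.935), genes of dividing cells. Ccl9 had no gene above 0.887, the value for Ccdc61.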

How the data were processed

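RNA of 18 libraries was sequenced, 3 in each of the 6 groups that the labels give. Each deposited value is the log2 of a gene's normalized count with 1 added, made by the authors with STAR, RSEM 1.3.1 and DESeq2, per the submitters' processing notes. Those notes name GRCh38 although the IDs belong to mouse genes; the authors' build and annotation therefore stay unclear. Turned back from log2, 100% of values in every library were whole multiples of 1 step to within 0.1 read, which gave reads and depth. Of 43309 IDs, 42425 matched GENCODE M21.

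A gene was tested where 3 libraries had a normalized count of 1 or more, which left 21336 genes. They were tested in 1 fit of the 6 groups with limma (version 3.58.1, R 4.3.3; trended and robust variances), with Benjamini-Hochberg adjustment per comparison over all genes and a threshold of 0.05, for 11 comparisons. Differences are log2 fold change ± SE and levels are mean ± SD of normalized counts. The step was tested on simulated data in which every gene had the same spread beyond counting error. Changes were placed only in genes above a low level. That test therefore cannot speak for members with few reads or a wider spread. Members, gene lists and motifs were chosen with earlier results of these data known. All 10 members are named, and of each other gene list up to 4 genes per comparison with the smallest p among those past the threshold; the text gives some of these. Same-numbered libraries deviated together in all 3 pairs in 14-3-3e knockout (correlation 0.417 to 0.500 over genes, M1 with M2), and not in all pairs elsewhere. Results for some genes of these lists are not reported here.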

Additional observations from a re-analysis of the deposited data

Results flagged for a closer look

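The 14-3-3e knockout effect on Ccl4 differed between polarization states by a test of the difference itself (limma adjusted p = 0.0232). The log2 difference between the effect in M1 and the effect in M2 was -1.63. The call was not stable: it ended with only the compared groups fitted (adjusted p = 0.0863) and with voom (adjusted p = 0.0559). It also ended without 14-3-3e knockout M2 replicate 1 or 2 and without WT M2 replicate 1 or 2. Ccl4 in 14-3-3e knockout was below WT in all 3 libraries in both states. Apart from leaving out each library in turn, groups of 3 libraries were not searched for single outlying samples.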

How the results depend on the processing

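Of 60 member calls, 42 held under every alternative and every left-out library; of 1462 alternative values, 1334 kept their direction and side of the threshold, 82 no longer passed, 46 newly passed and 0 reversed. A further 15 differences smaller than their standard error were not followed. The causes of the changes were not tested. When the fit held only the compared groups, the members past the threshold numbered 2 in place of 7 for PGRN knockout against WT in M1, 4 in place of 8 for 14-3-3e knockout against WT in M1, 7 in place of 4 for 14-3-3e knockout against PGRN knockout in M2, and 0 in place of 1 for the difference of 14-3-3e effects between M1 and M2. With voom weights on the recovered reads, an alternative chosen after seeing the data, these numbers were 4 for PGRN knockout against WT in M1, 6 in place of 3 for 14-3-3e knockout against WT in M2, and 0 for the difference of 14-3-3e effects. Voom on these reads stands in for the edgeR and DESeq2 fits planned, which were not run. On library totals the counts were 7 for 14-3-3e knockout against PGRN knockout in M2 and 1 in place of 0 for the difference of PGRN effects; this scaling shifted the median of all genes by -0.157 to -0.186 for M1 against M2, by 0.108 for 14-3-3e knockout against WT in M2, and by 0.149 (M1) and 0.146 (M2) for 14-3-3e knockout against PGRN knockout. A filter of 5 CPM, which leaves Ccl17 out, gave 1 for the difference of PGRN effects.

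With the replicate number as a replicate block, the difference of PGRN effects had 1 member past the threshold. With the block within each genotype, chosen after seeing the data, it had 2 (Ccl3 and Ccl4) and the difference of 14-3-3e effects had 3 (Ccl3, Ccl4 and Ccl9). The number marks no shared mouse or day in the labels. In 14-3-3e knockout M1 against M2 the block changed only the call of Ccl9. In WT M1 against M2, where the numbers did not pair all libraries, Ccl9 passed in the other direction (log2 fold change 0.44, adjusted p = 0.0227 with the block and 0.000799 with the block within genotype). Leaving out 1 library at a time gave 3 to 7 members past the threshold for PGRN knockout against WT in M1, 3 to 7 for 14-3-3e knockout against WT in M1, 0 to 1 for the difference of PGRN effects and 0 to 2 for that of 14-3-3e effects. Depth limits Ccl17, Ccl22 and Ccl24 in M1, where 1 read was worth up to 4.46 normalized counts.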
